A study of Homo sapiens with 6 samples.

Results

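Ultraconserved regions are stretches of genome kept identical between human, mouse and rat. Many of them are transcribed, and the noncoding transcripts, known as T-UCRs, differ between tissues and are altered in colorectal and other cancers. The deposited table holds probes for 16 such regions. Each region had 1 probe with the suffix "+" and 1 with the suffix "+A", giving 32 probes of the 2997 in the table. They were taken as every probe whose name starts with uc. By the usual convention the number is the region's place in the catalogue of ultraconserved regions, "+" names the transcript in the orientation of the reference genome, and "A" marks its antisense. The regions were uc.1, uc.10 and the 14 regions from uc.100 to uc.113. These names are consecutive in alphabetical order, and whether the array itself carries probes for more regions was not checked.

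Cells of HCT-116, a line from a human colorectal carcinoma, received by transient transfection variant 2 of Uc283+a, variant 1 of Uc283+a, or an empty vector (mock). Variant 2 holds a run of 9 T in the sequence and variant 1 a run of 8 T. Uc283+a is itself the transcript of an ultraconserved region, and it is known for pairing with a primary miRNA transcript and hindering its cropping by the Microprocessor. Each group had 2 arrays, and each array read total RNA of 1 sample. Whether the samples of a group are separate cultures is not stated in the labels, and the p-values below cover no more than the spread from array to array, which may be technical. None of the 32 probes names the region of Uc283+a, so the transfected RNA was not measured by them, and the comparisons below concern transcripts of other ultraconserved regions.

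Values are log2 signals that the authors had already normalized, with array medians between 6.56 and 6.60. The 38 Randomer probes, named for random sequences, served as the level that a probe reaches without a matching RNA. A probe was counted above the Randomer level on an array when it exceeded the 95th percentile of that array's Randomer probes. This level stood at 7.27 and 6.75 with variant 2, at 6.76 and 6.94 with variant 1, and at 6.86 and 6.81 in mock. Mock replicate 1 and variant 2 replicate 2 stood apart: over the 389 tested probes above this level on all 6 arrays, the SD of the log2 difference was 0.667 to 0.837 in the 9 pairs that hold either array and 0.463 to 0.576 in the remaining 6 pairs. Over the ultraconserved probes these kinds of pair overlapped. There the SD was lowest, 0.579, for mock replicate 1 with variant 1 replicate 2. It was highest, 1.03, for mock replicate 2 with variant 1 replicate 1, a pair that holds neither array. Mature miRNAs that serve as markers of cell types were also read. Of 8 markers of the colon epithelium, 3 were above the Randomer level on all 6 arrays, namely hsa-miR-200b, hsa-miR-200c and hsa-miR-429. hsa-miR-200a was above it on 4 arrays and hsa-miR-141 on 3, while hsa-miR-192, hsa-miR-194 and hsa-miR-215 were above it on at most 1 array. Of 20 markers of other cell types, 5 were also above it on all 6 arrays, namely hsa-miR-150, hsa-miR-206, hsa-miR-124, hsa-miR-122 and hsa-miR-214. Among all 1115 mature-named human miRNA probes the share was 23.2%. The neural marker hsa-miR-124 had a mean of 10.79, above the brightest colon marker, hsa-miR-200c, at 10.18. These markers therefore do not tell colon epithelium from other tissues on these arrays.

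By mean signal over the 6 arrays, most of the ultraconserved probes lay in the range of random sequence. The median of the 32 probe means was 6.14, against 6.14 for the 38 Randomer probes. Of the 32 means, 26 lay inside the range of the Randomer means, which ran from 5.63 to 7.17, 5 lay above it and 1 lay below it. On single arrays, the median ultraconserved probe differed from the median Randomer probe by -0.01 and 0.13 with variant 2, by 0.06 and 0.10 with variant 1, and by 0.08 and -0.04 in mock. Their signs were mixed within variant 2 and within mock. Single Randomer probes on an array had an SD of 0.511 to 0.642, which does not measure the uncertainty of a gap between medians. With means in place of medians the gap was positive on every array, from 0.03 on variant 2 replicate 1 to 0.32 on mock replicate 2.

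Only uc.106+A and uc.10+ were above the Randomer level on all 6 arrays, which is 2 of 32 probes, or 6.25%. The share was 21.9% over the 1773 probes tested, which were the human miRNA probes and these 32. The share was 23.2% for mature-named and 20.4% for precursor-named human miRNA probes. A further 3 probes, uc.106+, uc.110+A and uc.111+, were above it on 5 arrays and missed it on variant 2 replicate 1, the array with the highest Randomer level. Their values there stood at -0.65, -0.02 and -0.18 from the level. The uc.106+ value, 6.62, was also lower than the Randomer level of each of the other arrays. Without variant 2 replicate 1, 5 probes passed on every array. At the other end, 14 of the 32 probes were above the level on no array, against 684 of the 1773 tested probes and 29 of the 38 Randomer probes, from which the level itself was set. A further 9 ultraconserved probes were above it on 1 array, 3 on 2 arrays and 1 on 3 arrays. Counted per array, 4 and 7 of the 32 probes were above the level with variant 2, 12 and 6 with variant 1, and 7 and 9 in mock. As shares these were 12.5% and 21.9% with variant 2, 37.5% and 18.8% with variant 1, and 21.9% and 28.1% in mock. Over all tested probes the shares were 25.5% and 42.7% with variant 2, 39.7% and 33.0% with variant 1, and 36.5% and 38.0% in mock. The ultraconserved share was below that of all tested probes on each of the 6 arrays, and variant 2 replicate 1 had the lowest share of both. The groups overlapped in the ultraconserved count, and the arrays of variant 1 alone spanned much of its range.

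The brightest was the probe for the antisense of region 106. In RNA from whole cultures, fewer expressing cells and less RNA per cell cannot be told apart in a signal. uc.106+A gave 8.40 and 7.67 with variant 2, 8.42 and 9.07 with variant 1, and 8.43 and 9.20 in mock. It exceeded all 38 Randomer probes on all 6 arrays, by at least 0.92 above their 95th percentile. Both variant 2 arrays lay below the other 4, the nearer one by a narrow margin, while the variant 1 arrays overlapped with mock. The probe of the opposite orientation, uc.106+, gave 6.62 and 7.84 with variant 2, 7.58 and 8.33 with variant 1, and 7.01 and 8.34 in mock. It was above the Randomer level on 5 arrays, and the 3 groups overlapped.

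Region 10 was bright in one orientation. uc.10+ gave 7.66 and 7.12 with variant 2, 7.33 and 8.17 with variant 1, and 8.18 and 7.56 in mock. All 6 values were above the Randomer level, and the 3 groups overlapped. uc.10+A gave 5.99 and 5.84 with variant 2, 5.46 and 6.47 with variant 1, and 5.49 and 5.89 in mock. That probe was above the Randomer level on no array. Region 111 had the same arrangement, with uc.111+ above the level on 5 arrays and uc.111+A on none. uc.111+ gave 7.10 and 7.37 with variant 2, 7.40 and 7.44 with variant 1, and 7.28 and 8.16 in mock. The mock array of replicate 2 was the highest and the variant 2 arrays lay below the variant 1 arrays, within a range of 1.06. uc.111+A gave 6.66 and 4.88 with variant 2, 6.20 and 6.58 with variant 1, and 5.63 and 6.07 in mock. Here 1 variant 2 array was the highest of the 6 values and the other the lowest.

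In region 110, as in region 106, both probes were above the Randomer level on at least 3 arrays. In 4 further regions, 1, 102, 109 and 112, both probes passed it on at least 1 array. uc.110+A gave 7.26 and 6.78 with variant 2, 7.57 and 7.99 with variant 1, and 7.15 and 8.54 in mock. uc.110+ gave 6.80 and 6.14 with variant 2, 7.18 and 7.37 with variant 1, and 6.75 and 7.51 in mock. For each of these probes both variant 2 arrays lay below both variant 1 arrays, and mock overlapped with variant 1. The uc.110+A probe was above the Randomer level on 5 arrays and uc.110+ on 3. A gap between the 2 probes of a region cannot be read as a gap between strands, because the probes may differ in how strongly they bind. Their sequences were not used here.

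Regions 1, 100 and 102 each had a "+" probe above the Randomer level on 2 arrays. uc.1+ gave 6.15 and 6.63 with variant 2, 6.78 and 6.59 with variant 1, and 6.82 and 7.14 in mock. Both mock arrays were above all 4 variant arrays, the lower of them by a narrow margin. uc.1+A gave 6.80 and 6.27 with variant 2, 7.07 and 6.62 with variant 1, and 6.38 and 5.73 in mock. In this orientation both mock arrays were below both variant 1 arrays, whereas for the "+" probe they were above them. Mock overlapped with variant 2 for uc.1+A. uc.100+ gave 6.73 and 6.33 with variant 2, 6.89 and 6.09 with variant 1, and 6.39 and 7.14 in mock. uc.100+A gave 5.22 and 5.36 with variant 2, 5.93 and 6.27 with variant 1, and 5.85 and 6.41 in mock. The uc.100+ groups overlapped, while both uc.100+A values with variant 2 lay below the other 4. uc.102+ gave 7.45 and 6.87 with variant 2, 6.41 and 6.52 with variant 1, and 6.19 and 6.50 in mock. uc.102+A gave 6.20 and 6.33 with variant 2, 6.27 and 6.75 with variant 1, and 7.04 and 5.97 in mock. For uc.102+ both variant 2 arrays were above the other 4, and the arrays that passed the Randomer level were these same 2. The uc.102+A groups overlapped.

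The probes of the other regions passed the Randomer level on at most 1 array each. uc.103+ gave 5.39 and 4.07 with variant 2, 5.92 and 6.36 with variant 1, and 6.87 and 6.32 in mock. Both variant 2 arrays lay below the other 4, and the probe exceeded the Randomer level only on mock replicate 1. Its 4.07 on variant 2 replicate 2 was the lowest of the 32 probes on that array. uc.103+A gave 5.34 and 5.88 with variant 2, 6.18 and 5.48 with variant 1, and 5.34 and 5.97 in mock. The antisense probe overlapped between all groups and was above the level nowhere. uc.112+ gave 4.97 and 6.30 with variant 2, 7.64 and 5.23 with variant 1, and 5.76 and 3.40 in mock. The range of this probe, 4.24, was the widest of the 32, and the gap between the arrays of mock, and between those of variant 1, was wider than any difference between group means. uc.112+A gave 6.11 and 6.19 with variant 2, 7.19 and 6.34 with variant 1, and 6.38 and 6.45 in mock. The variant 2 arrays were below the other 4, by a margin smaller than the gap between the variant 1 arrays.

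Region 104 had large gaps within groups as well. uc.104+ gave 6.22 and 6.86 with variant 2, 6.35 and 6.10 with variant 1, and 4.66 and 6.38 in mock. One low value on mock replicate 1 set mock apart, and mock replicate 2 was above both variant 1 arrays. uc.104+A gave 6.78 and 6.64 with variant 2, 4.98 and 6.35 with variant 1, and 5.68 and 6.68 in mock. Both variant 2 arrays were above both variant 1 arrays for this probe, and mock overlapped with each. uc.113+ gave 6.82 and 4.62 with variant 2, 6.12 and 6.52 with variant 1, and 5.83 and 4.85 in mock. uc.113+A gave 5.85 and 6.18 with variant 2, 5.62 and 5.53 with variant 1, and 5.70 and 6.30 in mock. The variant 1 arrays were above mock for uc.113+ and below mock for uc.113+A.

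Among the remaining probes, region 107 had variant 2 highest in one orientation and lowest in the other. uc.107+A gave 6.96 and 6.02 with variant 2, 5.59 and 5.47 with variant 1, and 5.55 and 5.91 in mock. uc.107+ gave 4.93 and 5.55 with variant 2, 5.78 and 6.16 with variant 1, and 5.75 and 5.66 in mock. None of these values reached the Randomer level. uc.109+ gave 6.64 and 5.42 with variant 2, 7.04 and 6.39 with variant 1, and 5.75 and 6.10 in mock. uc.109+A gave 6.45 and 6.33 with variant 2, 6.52 and 5.95 with variant 1, and 6.20 and 6.88 in mock. Both variant 1 arrays were above both mock arrays for uc.109+, and uc.109+A overlapped between groups. uc.108+ gave 4.92 and 6.43 with variant 2, 5.91 and 6.53 with variant 1, and 6.29 and 5.22 in mock. uc.108+A gave 7.28 and 6.09 with variant 2, 6.10 and 6.41 with variant 1, and 6.68 and 6.35 in mock. Every pair of groups overlapped for both probes of region 108.

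Regions 101 and 105 had no order of groups shared by both orientations. uc.101+ gave 5.70 and 5.80 with variant 2, 5.37 and 6.64 with variant 1, and 5.01 and 6.13 in mock. uc.101+A gave 5.05 and 6.32 with variant 2, 4.80 and 5.86 with variant 1, and 6.21 and 6.04 in mock. For uc.101+A both variant 1 arrays lay below mock, and variant 2 overlapped with it. uc.105+ gave 5.87 and 5.10 with variant 2, 5.80 and 6.73 with variant 1, and 6.44 and 5.89 in mock. uc.105+A gave 5.97 and 5.82 with variant 2, 6.08 and 4.92 with variant 1, and 5.24 and 6.32 in mock. For uc.105+ both variant 2 arrays were below both mock arrays, at values that were themselves below the Randomer level. Both uc.105+A and uc.103+A, like uc.107+, were below the Randomer median on all 6 arrays.

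Differences between groups were tested with limma, a linear model with moderated variances, over all 1773 tested probes at a Benjamini-Hochberg adjusted p of 0.05. The comparisons share arrays, so their results are not independent. No ultraconserved probe passed in any of the 4 comparisons, and limma called 0% of all tested probes in each. With 2 arrays a group, the median standard error of a difference for these probes was 0.46 log2 units for a pair of groups and 0.40 for both variants against mock. The 95% intervals given below hold the differences compatible with these arrays before any adjustment for the number of probes tested. For probes at the Randomer level a log2 difference gives no measured fold.

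With both variants set against mock, 14 of the 32 probes had higher and 18 lower means, while 49.4% of all tested probes had higher means. The median difference of the 32 was -0.08, against -0.01 over all tested probes. The smallest p belonged to uc.103+, which averaged 5.43 in the variants and 6.59 in mock, a difference of -1.16 (SE 0.441, 95% interval -2.16 to -0.16). In limma its unadjusted p was 0.0281 and its adjusted p 0.975. It was the single ultraconserved probe under an unadjusted p of 0.05 and was lower, as were 2.43% of all tested probes, while 0 of the 32 were higher, as were 2.20% of all tested probes. All 4 variant arrays were outside the mock range for 1 probe, uc.1+, at -0.45 (SE 0.337), on the lower side, where 6.71% of tested probes did the same, and for 0 probes on the higher side, where 6.54% did. After uc.103+, the next lowest was uc.101+A at -0.62 (SE 0.467). The 3 highest were uc.112+ at 1.46 (SE 0.815), uc.104+ at 0.86 (SE 0.497) and uc.113+ at 0.68 (SE 0.594), each with arrays that overlapped. These 3 moved with single arrays. Leaving out mock replicate 2 gave 0.27 for uc.112+, and leaving out mock replicate 1 gave 2.64. For uc.113+ the value was 0.13 when variant 2 replicate 1 was left out and 1.23 when variant 2 replicate 2 was. The difference of uc.104+ was -0.00081 without mock replicate 1. Randomer probes on the same arrays differed by -1.17 to 1.32, a range that held every ultraconserved probe except uc.112+.

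The 2 probes that were above the Randomer level on all arrays gave intervals around 0. For uc.106+A the difference was -0.43 (95% interval -1.34 to 0.49), and for uc.10+ it was -0.30 (-1.20 to 0.60). Both intervals include a change of 2-fold downwards, so these values do not show that the transcripts stayed level.

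With variant 2 set against mock, 13 probes had higher and 19 lower means, while 51.3% of all tested probes had higher means. The median of the 32 was -0.12, against 0.01 over all tested probes. The probe uc.103+ averaged 4.73 with variant 2 and 6.59 in mock, a difference of -1.87 (SE 0.509, 95% interval -3.02 to -0.71). Its unadjusted limma p was 0.0055, at rank 4 of the 1773 tested probes, and its adjusted p was 0.938. Alone among the 32 probes it lay outside the range of the Randomer differences, -1.45 to 1.21. At an unadjusted p under 0.05, 1 of the 32 was lower and 0 were higher, against 2.54% and 2.26% of all tested probes. The difference was -1.20 without variant 2 replicate 2, the array with the lowest value, -1.59 without mock replicate 1 and -0.93 without both. The other probes at the lower end were uc.100+A at -0.83 (SE 0.395) and uc.110+A at -0.83 (SE 0.514). Leaving out mock replicate 2 gave -0.13 for uc.110+A, and leaving out mock replicate 1 gave -1.52. At the upper end stood uc.112+ at 1.06 (SE 0.941), uc.104+ at 1.02 (SE 0.574) and uc.102+ at 0.82 (SE 0.395). The arrays did not overlap for 2 probes on the higher side, where 16.4% of tested probes did so, and for 7 on the lower side, where 17.0% did so. On the lower side these were uc.1+, uc.100+A, uc.103+, uc.105+, uc.106+A, uc.107+ and uc.112+A.

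With variant 1 set against mock, 17 probes had higher and 15 lower means, while 50.1% of all tested probes had higher means. The median of the 32 was 0.05, against 0.00013 over all tested probes. The smallest unadjusted p in limma was 0.0811, for uc.112+, which averaged 6.43 with variant 1 and 4.58 in mock, a difference of 1.86 (SE 0.941, 95% interval -0.28 to 4.0) that rested on widely spread arrays. The adjusted p was 0.960. Randomer probes differed by -1.53 to 1.68 in this comparison, a range that held every ultraconserved probe except uc.112+. At an unadjusted p under 0.05, 0 of the 32 were higher or lower, against 1.92% and 2.20% of all tested probes. Next were uc.113+ at 0.98 (SE 0.686) and uc.1+A at 0.79 (SE 0.427), both with arrays above mock. The lowest were uc.101+A at -0.79 (SE 0.539), uc.104+A at -0.51 (SE 0.544) and uc.103+ at -0.45 (SE 0.509). For uc.103+ the variant 1 arrays overlapped with mock. Arrays did not overlap for 5 probes on the higher side, where 16.5% of tested probes did so, and for 3 on the lower side, where 17.3% did so.

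With variant 2 set against variant 1, 10 probes had higher and 22 lower means. Higher means were found for 50.5% of all tested probes and for 20 of the 38 Randomer probes. The 32 probes share the same arrays, so they are not independent replicates. Their median was -0.30, against 0.005 over all tested probes and 0.01 over the 38 Randomer probes. The lowest was again uc.103+, which averaged 4.73 with variant 2 and 6.14 with variant 1, a difference of -1.41 (SE 0.509, 95% interval -2.57 to -0.25). In limma its unadjusted p was 0.0223 and its adjusted p 0.924. Without variant 2 replicate 2 the difference was -0.75. The Randomer differences here ran from -0.96 to 1.57, and uc.103+ was again the only ultraconserved probe outside their range. At an unadjusted p under 0.05, 0 of the 32 were higher and 1 was lower, against 2.43% and 2.54% of all tested probes. Then came uc.110+ at -0.81 (SE 0.437) and uc.100+A at -0.81 (SE 0.395). The highest were uc.104+A at 1.04 (SE 0.544), uc.107+A at 0.96 (SE 0.435) and uc.102+ at 0.70 (SE 0.395), each with both variant 2 arrays above both variant 1 arrays. Such separation was seen for 4 probes on the higher side, where 17.6% of tested probes did so, and for 8 on the lower side, where 17.9% did so. The transfected RNA itself was not measured by these probes, so the length of the T run and the amount of transcript cannot be told apart in this comparison.

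The 5 probes whose means exceeded every Randomer mean, uc.106+A, uc.10+, uc.106+, uc.110+A and uc.111+, were taken as a set by their mean over all 6 arrays. The set was chosen with values known, and 2 of its probes share region 106. Its probes also share the same arrays, so the counts below are not counts of independent replicates and describe these arrays only. They had lower means with variant 2 than in mock in 5 of 5 cases, with differences of -0.83 to -0.44 and a median of -0.49. For the 116 tested probes with a mean in the range of the 5, which include the 5 themselves, the median was -0.09, and 56.0% were lower. Set against variant 1, variant 2 was lower for 5 of 5, with a median of -0.71, against -0.13 for the 116 probes, of which 56.9% were lower. That median came to -0.35 when variant 2 replicate 2 was left out, to -0.35 when variant 1 replicate 2 was, and to -0.97 when variant 1 replicate 1 was. With variant 1 against mock the median was -0.07 and 4 of 5 were lower, as were 50.9% of the 116 probes. The sign of this median turned with single arrays, from -0.45 without mock replicate 1 to 0.31 without mock replicate 2. The next brightest probe was uc.110+, which shares its region with uc.110+A. With it added to the set, 6 of 6 were lower with variant 2 than in mock and the median was -0.58. None of the 5 passed in limma, and the unadjusted p for variant 2 against mock was between 0.130 and 0.472. Mock replicate 2 gave the highest of the 6 values for uc.106+A, uc.106+, uc.110+A and uc.111+, and without it the median against mock was -0.13 for variant 2. Without mock replicate 1 it was -1.11.

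The signs of the differences were also counted by region. With both variants against mock, the "+" and "+A" probes of 10 of the 16 regions had opposite signs, with 2 regions higher in both and 4 lower in both. With variant 1 against mock the "+" and "+A" probes of 13 of the 16 regions differed from mock in opposite directions, with 2 regions higher in both and 1 lower in both. With variant 2 against mock, 9 regions had opposite signs, 2 were higher in both and 5 were lower in both. In the comparison of variant 2 with variant 1, 8 regions had opposite signs, 1 was higher in both and 7 were lower in both. The 16 "+" probes had a median of -0.57 in that comparison with 3 higher, and the 16 "+A" probes a median of -0.14 with 7 higher. These counts are of signs of differences that did not pass the test, the comparisons share arrays, and nothing is read from them.

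For the median probe, the spread between arrays of a group was as large as for random sequence. The median residual SD within groups was 0.494 for the 32 probes and 0.495 for the 38 Randomer probes, against 0.424 for all tested probes and 0.360 for those above the Randomer level on all 6 arrays. It was lowest for uc.1+, at 0.249, and highest for uc.112+, at 1.48. Across the 32 probes, the 3 pairs of arrays of 1 group correlated at r = 0.449 to 0.630, and the 12 pairs of different groups at 0.438 to 0.781. Across the 38 Randomer probes, the pairs within groups correlated at 0.226 to 0.448 and those between groups at -0.297 to 0.437. In both sets of probes the range within groups overlapped the range between groups. The range between groups reached lower in both sets, slightly for the ultraconserved probes and by more for the Randomer probes. The correlations are across probes that share an array, and are given as a description.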

How the data were processed

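The deposited table holds 2997 probes by 6 arrays, 2 for each of 3 groups, and each column carries its sample's identifier. The deposited values are on a log2 scale and were normalized between arrays by the authors. The log base was read from the ceiling of the deposited values just under 16. Limma is named in the submitters' processing notes without a version. Neither the background correction nor the normalization method is stated in the sources used here. Per the labels' protocols, biotinylated random octamers primed reverse transcription of 4 µg of DNase-treated total RNA.

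Probes starting with uc. were taken, and none was removed. Their sequences and positions were not used here, and 0 of the 16 region names matched the RefSeq gene table of GRCh38.p14. A limma model (version 3.58.1, R 4.3.3) with 1 mean per group was fitted to the 1773 human miRNA and ultraconserved probes, with 3 residual degrees of freedom, to which the prior added 5.71. P-values were two-sided and adjusted by Benjamini-Hochberg over the 1773. The number of arrays limits the precision.

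The probes, the Randomer level and the tests were chosen with earlier results of these data known. Values in every array are given for all 32 probes, because the naming rule takes both orientations of a region. It also names the 3 highest and 3 lowest of each comparison and any with an unadjusted p under 0.05. Alternatives covered the normalization, the variance prior, a filter on dim probes, the probes and groups fitted, the Randomer percentile, and leaving out arrays.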

Additional observations from a re-analysis of the deposited data

How the results depend on the processing

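No ultraconserved probe passed limma's adjusted p in any of the 4 comparisons under any alternative. The count of 2 probes above the Randomer level on all 6 arrays stayed at 2 under quantile normalization and without both arrays that stood apart, a setting chosen after seeing the data. It was 4 against the 90th percentile of the Randomer probes, 1 against the highest Randomer probe, 5 when 4 of 6 arrays sufficed, and 2 to 5 when each array was left out in turn. The median difference of the probes moved with single arrays. Leaving out each array in turn gave -0.15 to 0.12 for both variants against mock, -0.15 to 0.25 for variant 1, -0.33 to -0.023 for variant 2, and -0.34 to -0.16 for variant 2 against variant 1. Without both arrays that stood apart, the first 3 medians were -0.24, -0.15 and -0.35. Over the 9 probes above the Randomer level on at least 2 arrays they were -0.30, -0.068 and -0.49. This filter was drawn from the same arrays that are compared. Some of the 9 probes passed it on no variant 2 array, and another passed it on variant 2 arrays only. The choice of probes can therefore move these 3 medians by itself, and nothing is read from them. With means in place of medians, the gap to the Randomer probes was positive on every array. It was 0.03 and 0.12 with variant 2, 0.32 and 0.25 with variant 1, and 0.15 and 0.32 in mock.

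Across the 24 named differences, the 3 highest and 3 lowest of each comparison, leaving out 1 array moved 22 by over 1.5 times and turned the sign of 3. Without both arrays that stood apart, uc.104+ was at -0.16 for both variants and -0.17 for variant 2 against mock, and leaving out each array in turn its difference for both variants ran from -0.00081 to 1.73. In the same way uc.112+ ran from -0.12 to 2.24 for variant 2 and uc.104+A from -1.20 to 0.17 for variant 1, against mock. The cause was not tested. No paired analysis was possible because the labels give no replicate numbers that link arrays of different groups. With 1 array left in a group, its spread is assumed to equal that of the others.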

Other observations

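Among the 38 Randomer probes, Randomer 120 had the highest mean, 7.17, and reached 8.21 on mock replicate 1, where 1 of the 32 ultraconserved probes, uc.106+A, was brighter. It was above the 95th percentile of its own class on 3 arrays. The share of probes above the Randomer level on all 6 arrays was 24.2% for the 1084 mouse-named probes and 40.9% for the 93 probes with designed mismatches, against 6.25% for the ultraconserved probes. No explanation was tested for these values.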
